A study of Homo sapiens with 6 samples.

Results

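Keratins are the intermediate filament proteins of epithelial cells. This account covers the type I and type II keratin genes of HCC2814, a human lung squamous cell carcinoma (LUSC) line, with and without a guide against MLST8. Members were taken by symbol, as KRT followed by a number with an optional letter A to C, leaving out keratin-associated proteins and pseudogenes. This gave 47 of the 17448 genes in the expression table, 21 of type I and 26 of type II. By the epithelium in which each is known to be made, 4 were grouped as basal, 17 as suprabasal, 6 as simple epithelial and 20 as hair keratins.

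RNA-seq was carried out on 3 WT and 3 MLST8-KO samples. The study's RNA-seq methods give n = 3 for each group and do not say how the replicates were made. All 6 samples were HCC2814 cells grown in DMEM with fetal bovine serum. MLST8-KO cells received a guide RNA against MLST8, which encodes a shared subunit of the kinase complexes mTORC1 and mTORC2, and WT cells received a non-targeting guide. Per the labels the guide was applied for 48 to 72 h and was followed by antibiotic selection, whereas the study's methods give those hours for collecting virus. No cloning from single cells is described for these pools. Which of the study's guides the sequenced cells carried is not given in the sources used here. The study's blots number its control and MLST8 guide lines 1 to 3, and whether the replicate numbers stand for these is not given. MLST8 itself had 874, 827 and 842 counts in WT replicates 1 to 3 and 396, 629 and 401 in MLST8-KO replicates 1 to 3, all below WT (log2 fold change -0.96, adjusted p = 0.00339 by edgeR's quasi-likelihood test). Library totals ran from 14381673 to 15744154 estimated counts.

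Keratin filaments are built from dimers of 1 acidic type I and 1 basic type II chain. Basal cells of stratified epithelia are known for KRT5 with KRT14, and cells that leave the basal layer for KRT1 with KRT10 or, in mucosa, KRT4 with KRT13. Wounded or fast-growing squamous epithelium makes KRT6 chains with KRT16 and KRT17, and simple, glandular epithelium makes KRT8 with KRT18, often with KRT7 and KRT19. The type II genes and KRT18 lie side by side on chromosome 12 and the other type I genes on chromosome 17. Squamous carcinomas commonly keep the basal and wound keratins.

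KRT6A, KRT6B and KRT6C are near-identical neighbours whose values differed in the comparison below, so the stretch where they are easiest to tell apart is shown first. The lines give coding bases 663 to 722 of each gene, read from the minus strand of GRCh38 at chr12:52491555-52491614 for KRT6A, chr12:52450439-52450498 for KRT6B and chr12:52472099-52472158 for KRT6C. Capitals mark the 9 positions at which the copies are not all alike.
KRT6A: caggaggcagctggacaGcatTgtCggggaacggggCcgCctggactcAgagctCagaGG
KRT6B: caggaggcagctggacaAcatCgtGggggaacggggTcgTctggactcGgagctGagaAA
KRT6C: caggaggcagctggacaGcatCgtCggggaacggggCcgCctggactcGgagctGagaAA
In this stretch KRT6C differed from KRT6A at 5 bases and KRT6B at 9. Over the 1692 coding bases, KRT6A and KRT6C differed at 35 (97.9% identity), KRT6A and KRT6B at 42 (97.5%), and KRT6B and KRT6C at 25 (98.5%). The longest run of coding bases shared by KRT6A and KRT6C was 349 bases, and the 3 copies were not all alike at 51 coding positions. KRT14 was 86.7% identical to KRT16 and 85.2% to KRT17 over the aligned coding bases.

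The 250 bases before the RefSeq start sites (GRCh38.p14, minus strand) of 3 type II keratins from a single stretch of chromosome 12 are given next, because the genes lay close together and their values moved differently. They lie at chr12:52520395-52520644 for KRT5, chr12:52434372-52434621 for KRT75 and chr12:52385653-52385902 for KRT84. Capitals mark the letters ATAAAA nearest the start, an AT-rich run of the kind a TATA box holds.
KRT5: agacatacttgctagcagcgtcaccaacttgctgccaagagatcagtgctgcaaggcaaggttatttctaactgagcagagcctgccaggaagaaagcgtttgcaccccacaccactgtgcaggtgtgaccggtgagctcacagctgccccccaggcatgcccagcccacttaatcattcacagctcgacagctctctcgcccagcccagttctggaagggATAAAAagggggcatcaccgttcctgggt
KRT75: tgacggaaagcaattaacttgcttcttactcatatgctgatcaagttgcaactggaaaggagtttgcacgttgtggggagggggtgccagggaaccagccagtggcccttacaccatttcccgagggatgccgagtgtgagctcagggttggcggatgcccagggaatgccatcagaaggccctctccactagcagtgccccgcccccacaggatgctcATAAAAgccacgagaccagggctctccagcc
KRT84: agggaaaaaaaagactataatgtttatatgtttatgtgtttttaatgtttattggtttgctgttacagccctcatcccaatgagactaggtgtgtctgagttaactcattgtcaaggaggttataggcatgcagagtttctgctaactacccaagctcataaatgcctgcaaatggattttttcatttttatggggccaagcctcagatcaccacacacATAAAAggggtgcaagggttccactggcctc
The motif was chosen after the sequences were read. Of the 47 keratins, 27 had a RefSeq window of 250 bases before and 50 after the start, with 28 windows in all. ATAAAA on the gene's own strand, starting 37 to 25 bases before the start, was found in 12 of the 28 keratin windows and in 1.62% of the 35116 windows of all genes. Among the 9 tested keratins with a window, the 4 that held it there were KRT5, KRT75, KRT84 and KRT34, and their log2 fold changes were 0.52, -0.14, 2.89 and -1.11. Searched on both strands of the whole window, TGANTCA, the AP-1 motif, was in 0 of 28 keratin windows (7.71% of all windows) and GGGCGG, a GC box, was in 6 of 28 (45.0% of all). None of the 3 motifs contains another.

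In MLST8-KO cells the basal keratins and part of the suprabasal keratins rose, while the simple epithelial pair KRT8 and KRT18 and the suprabasal KRT80 fell. After edgeR's filter on low counts, 24 of the 47 keratins were tested. With edgeR's quasi-likelihood test and Benjamini-Hochberg adjustment over all 12951 genes tested, 13 keratins were higher in MLST8-KO cells (16.3% of all genes tested were), 3 were lower (15.7% of all genes) and 8 did not pass the threshold of 0.05. Every MLST8-KO sample was above every WT sample for 13 keratins (24.8% of all genes tested) and below for 4 (24.2% of all genes). By either measure, the share of tested keratins that fell was no larger than that of all genes. The median log2 fold change was 0.43 over the tested keratins and 0.00 over all genes tested. By type, 7 of 12 type I keratins were higher and 1 lower, and 6 of 12 type II keratins were higher and 2 lower. Over all genes 51.0% of the calls were in the higher direction, which became 62.0% with upper quartile scaling and 71.0% with limma on log2(TPM + 1), whereas the keratin calls stayed at 13 higher under each.

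Not all of the tested keratins could have been tested in either direction. Of the 24, 17 were over the filter's level of 0.658 CPM in all samples of both groups, and these held 10 higher and 3 lower genes. The share of all genes under the same restriction was not computed. Without it, 16.3% of all 12951 genes tested were higher and 15.7% lower. KRT84, KRT76, KRT77 and KRT9 were over it throughout only in MLST8-KO cells, KRT34 and KRT23 only in WT cells, and KRT7 throughout neither group. The 23 keratins that were not tested had between 0 and 17 counts in any sample, and 19 of them had 8 or fewer.

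**Figure D1:**
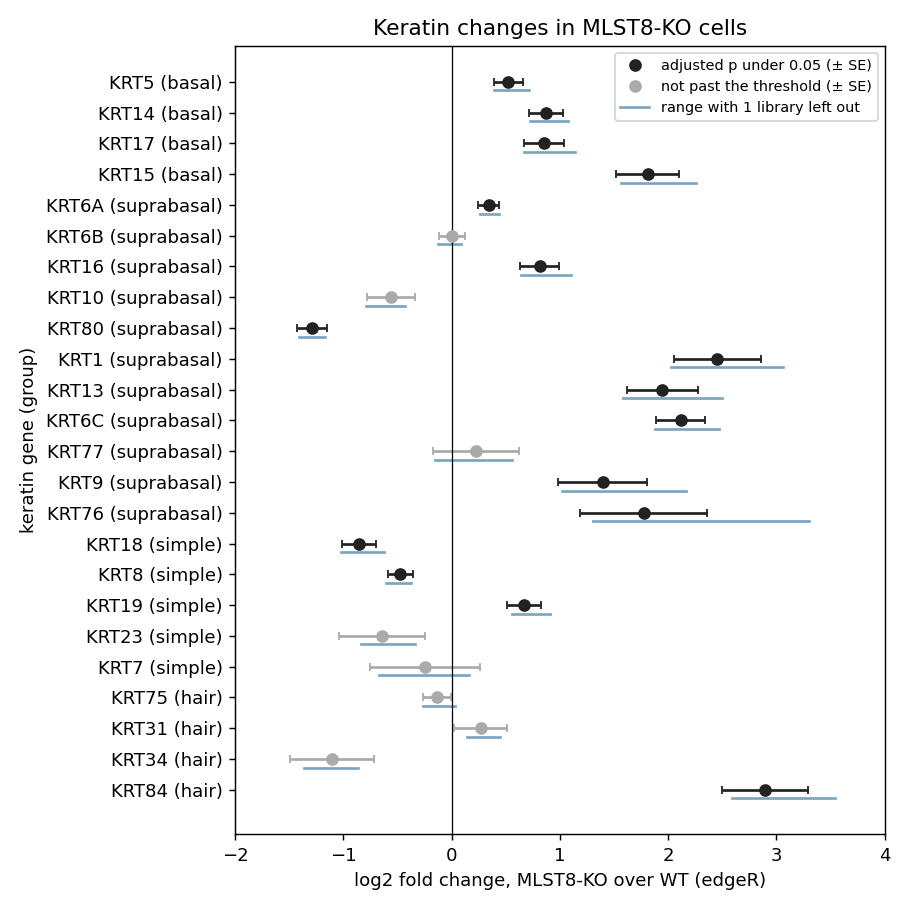
Log2 fold change (MLST8-KO over WT, edgeR) of the 24 keratins tested, with SE bars and, under each point, the range when 1 library was left out. Dark points have an adjusted p under 0.05: 13 lie right of 0 and 3, KRT80, KRT18 and KRT8, lie left of it.

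The summed level of all 47 keratins was 19055, 14889 and 12356 TPM (a level scaled by gene length and depth) in WT replicates 1 to 3. It was 26525, 23568 and 24428 TPM in MLST8-KO replicates 1 to 3, so that every MLST8-KO sample was above every WT sample. The group means were 15433 ± 3382 and 24841 ± 1521 TPM (SD, n = 3 each), a ratio of 1.61. Keratins made up 1.24 to 1.91% of all TPM in WT and 2.36 to 2.65% in MLST8-KO samples. KRT5, KRT6A, KRT14 and KRT17 together held 88.0 to 91.3% of keratin TPM in WT and 93.0 to 93.5% in MLST8-KO cells. The ratio of MLST8-KO to WT means was 1.78 for the basal group, 1.38 for the suprabasal group, 0.728 for the simple group and 0.989 for the hair group. On log2(TPM + 1) the median log2 fold change of all genes tested was 0.09, and the TPM ratios were not corrected for this shift. For KRT5 the ratio was 1.55 by TPM and 1.44 by the edgeR fit to counts. Type I keratins summed to 6449 ± 1704 TPM in WT and 12075 ± 1098 in MLST8-KO cells, and type II keratins to 8984 ± 1682 and 12765 ± 459 TPM (SD, n = 3 each). The type II to type I ratio was 1.29 to 1.49 in WT and 1.005 to 1.13 in MLST8-KO samples, without overlap. In bulk RNA, more cells with a keratin and more of its RNA per cell cannot be told apart.

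**Figure D2:**
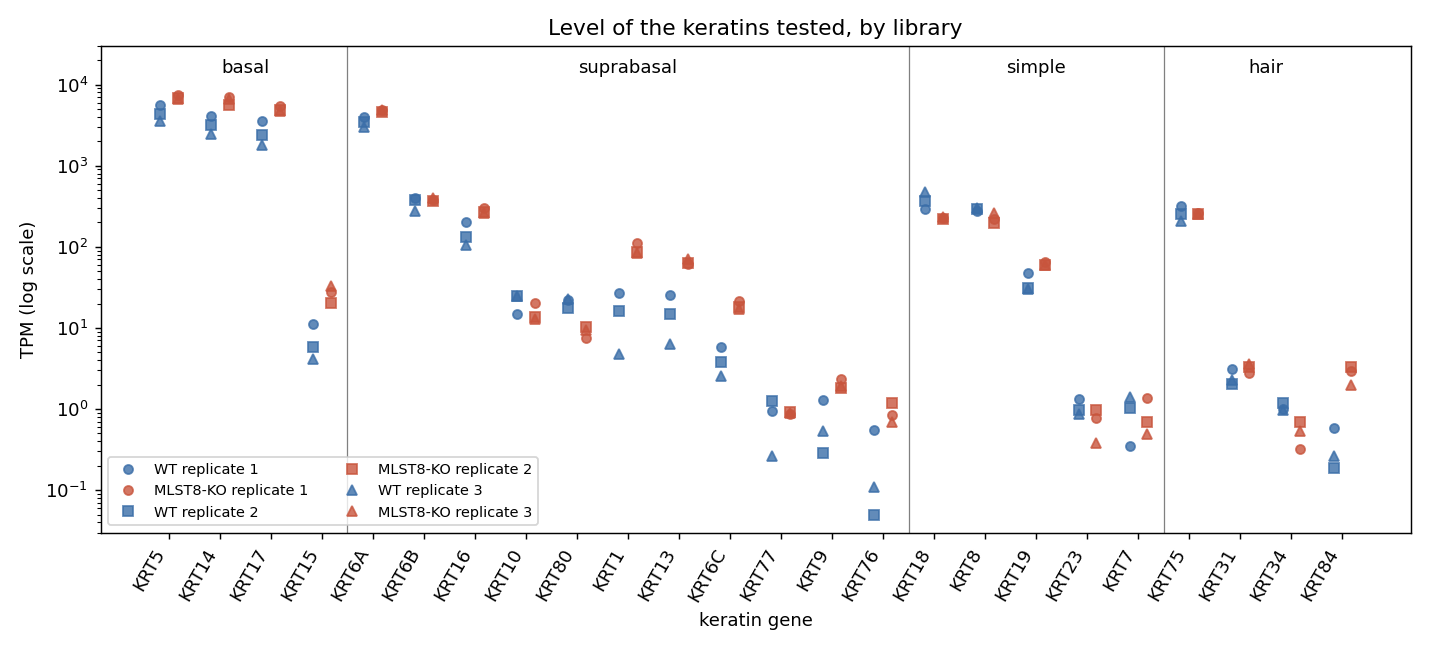
TPM of each tested keratin in each library, on a log axis, with a marker for each replicate and a colour for each group. KRT5, KRT14, KRT17 and KRT6A stand at 1811 TPM or more in all 6 libraries.

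All 4 basal keratins rose. KRT5 (chr12:52514575-52520687), the type II chain of basal cells and the most abundant keratin in every WT sample, was at 5679, 4331 and 3557 TPM in WT and 7397, 6932 and 6646 TPM in MLST8-KO replicates 1 to 3. KRT14 (chr17:41582279-41586921), its type I partner, was at 4149.7, 3148 and 2488 TPM in WT and 7002, 5583 and 6609 TPM in MLST8-KO replicates. The groups did not overlap for either gene, and WT replicate 1 was nearest to the MLST8-KO samples. The log2 fold change was 0.52 (SE 0.14, adjusted p = 0.0174) for KRT5 and 0.87 (SE 0.16, adjusted p = 0.00509) for KRT14 by edgeR with Benjamini-Hochberg adjustment. KRT17 (chr17:41619441-41624842), a chain of basal appendage cells that is induced by injury, was at 3554, 2365 and 1811 TPM in WT and 5519, 4809 and 4665 TPM in MLST8-KO replicates. Again the lowest MLST8-KO sample was above the highest WT sample, with a log2 fold change of 0.85 (SE 0.19, adjusted p = 0.00938, edgeR). KRT15 (chr17:41513743-41522529), a basal chain known from follicle stem cells, was far less abundant, at 11.1, 5.81 and 4.17 TPM in WT and 27.5, 20.03 and 33.2 TPM in MLST8-KO replicates. It had the largest change of the basal group, 1.81 on the log2 scale (SE 0.29, adjusted p = 0.00363, edgeR). KRT5 lost its call when WT replicate 2 or any 1 of the MLST8-KO replicates was left out, and its log2 fold change ran from 0.39 to 0.71 over the 6 fits.

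Of the wound keratins, which are made in injured and hyperproliferative epithelium, KRT6A, KRT6C and KRT16 rose and KRT6B gave no call. KRT6A (chr12:52487174-52493257) was at 4015, 3499 and 3021 TPM in WT and 4892, 4649 and 4804 TPM in MLST8-KO replicates, without overlap. Its partner KRT16 (chr17:41609778-41615899) was at 201, 131.5 and 107 TPM in WT and 302, 268 and 259.7 TPM in MLST8-KO replicates, likewise without overlap. The log2 fold changes were 0.34 for KRT6A (SE 0.10, adjusted p = 0.0259) and 0.81 for KRT16 (SE 0.18, adjusted p = 0.00941) by edgeR. KRT6A lost its call without WT replicate 2 or without any 1 of the MLST8-KO replicates, and ran from 0.26 to 0.44 over the 6 fits.

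KRT6B (chr12:52446651-52452126) and KRT6C (chr12:52468516-52473785), whose sequences are shown above, are less abundant than KRT6A. KRT6B was at 396, 383 and 279 TPM in WT and 376, 366 and 398 TPM in MLST8-KO replicates, with overlapping groups and a log2 fold change of 0.00 (SE 0.12, adjusted p = 0.984, edgeR). KRT6C was at 5.83, 3.76 and 2.52 TPM in WT and 21.3, 18.3 and 17.3 TPM in MLST8-KO replicates and the groups were far apart. Its log2 fold change was 2.12 (SE 0.23, adjusted p = 0.00281, edgeR). For every 1000 KRT6A counts there were 0.776 to 1.35 KRT6C counts in WT, lowest in replicate 3 and highest in replicate 1, and 4.05, 3.65 and 3.34 in MLST8-KO replicates 1 to 3. For KRT6B there were 91.4, 101 and 85.6 counts in WT against 71.2, 72.9 and 76.8 in MLST8-KO replicates. KRT6C counts were thus a small fraction of those of its near-identical copy, and the way in which reads that fit more than 1 copy were divided is not given in the sources used here, so the split among the 3 copies is uncertain. With their counts summed into 1 gene, an alternative added after the data were seen, the copies had a log2 fold change of 0.32 (SE 0.10, adjusted p = 0.0346, edgeR).

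**Figure D3:**
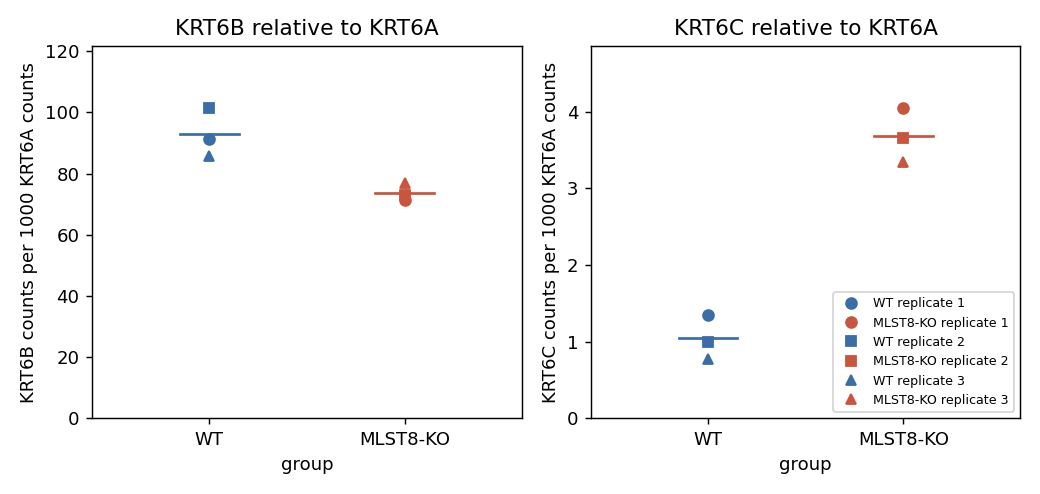
Counts of KRT6B (left) and KRT6C (right) for every 1000 KRT6A counts in each library, with lines at the group means. For KRT6C the MLST8-KO libraries lie at 3.34 to 4.05 and the WT libraries at 0.776 to 1.35, and for KRT6B the MLST8-KO libraries lie below the WT libraries.

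The differentiation keratins split. Of 7 tested, KRT1, KRT13, KRT76 and KRT9 rose, KRT80 fell and KRT10 and KRT77 did not pass the threshold. KRT13 (chr17:41500981-41505705), the type I chain of mucosal suprabasal cells, was at 25.7, 15.05 and 6.26 TPM in WT and 62.0, 62.7 and 70.2 TPM in MLST8-KO replicates. KRT1 (chr12:52674736-52680407), the first type II chain made above the epidermal basal layer, was at 27.3, 16.2 and 4.74 TPM in WT and 112, 87.1 and 84.6 TPM in MLST8-KO replicates. For both genes the WT samples spread widely, with WT replicate 3 lowest, and still lay wholly below the MLST8-KO samples. The log2 fold changes were 1.95 for KRT13 (SE 0.33, adjusted p = 0.00397, edgeR) and 2.45 for KRT1 (SE 0.40, adjusted p = 0.00370, edgeR). Without WT replicate 3 they remained called, KRT13 at 1.58 and KRT1 at 2.03, and without WT replicate 1 KRT1 was at 3.06.

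KRT10 (chr17:40818117-40822595), the usual type I partner of KRT1, was not called. It was at 14.8, 24.7 and 24.7 TPM in WT and 20.3, 13.8 and 12.9 TPM in MLST8-KO replicates, so that WT replicate 1 fell among the MLST8-KO values. The log2 fold change of -0.56 (SE 0.22, adjusted p = 0.0722, edgeR) did not pass the threshold. It passed with DESeq2 (adjusted p = 0.0335) and in edgeR without WT replicate 1 (-0.78) or MLST8-KO replicate 1 (-0.79).

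KRT80 (chr12:52168996-52192000), a type II keratin found at cell junctions of many epithelia, had the largest fall of the family. It was at 21.8, 17.6 and 22.5 TPM in WT and 7.54, 10.2 and 9.52 TPM in MLST8-KO replicates, and the groups were far apart. It fell by 1.29 on the log2 scale (SE 0.14, adjusted p = 0.00281, edgeR), between 1.17 and 1.41 when any 1 library was left out. KRT9, the keratin of palm and sole skin, was at 1.29, 0.29 and 0.53 TPM in WT and 2.33, 1.82 and 1.90 TPM in MLST8-KO replicates. KRT76, a keratin of hard palate and gum, had 11, 1 and 2 counts in WT and 16, 23 and 14 counts in MLST8-KO replicates. Both rested on few counts, and their log2 fold changes of 1.39 (SE 0.41, adjusted p = 0.0278) and 1.78 (SE 0.59, adjusted p = 0.0416) by edgeR passed only narrowly. Each was over the count filter in 1 WT library and in 3 MLST8-KO libraries. Neither passed the threshold when a library other than WT replicate 1 was left out, and KRT76 also lost it with DESeq2 (adjusted p = 0.0620). Without WT replicate 1, which had the most counts of the WT samples, KRT9 was at 2.16 and KRT76 at 3.31 on the log2 scale. KRT77, a keratin of sweat ducts, had 25, 21 and 6 counts in WT and 21, 22 and 23 in MLST8-KO replicates (log2 fold change 0.23, SE 0.40, adjusted p = 0.682, edgeR).

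Among the simple epithelial keratins, KRT8 and KRT18 fell and KRT19 rose. KRT18 (chr12:52948871-52952901), the type I chain of simple epithelia, was at 293, 363 and 479 TPM in WT and 225, 220.1 and 233 TPM in MLST8-KO replicates. KRT8 (chr12:52897187-52949954), its type II partner, was at 278, 291 and 301 TPM in WT and 217, 199 and 258 TPM in MLST8-KO replicates. For KRT18 and for KRT8 all MLST8-KO samples were below all WT samples, and for KRT18 WT replicate 3 was the highest sample. KRT18 fell by 0.86 on the log2 scale (SE 0.16, adjusted p = 0.00542, edgeR) and KRT8 fell by 0.47 (SE 0.11, adjusted p = 0.0124, edgeR), and KRT8 lost its call without MLST8-KO replicate 1 or MLST8-KO replicate 2. KRT19 (chr17:41523617-41528308), a type I chain of simple epithelia that is also made in some basal cells, was at 47.9, 30.8 and 29.96 TPM in WT and 65.5, 60.35 and 60.02 TPM in MLST8-KO replicates, without overlap. Its log2 fold change was 0.67 (SE 0.16, adjusted p = 0.0112, edgeR), and it lost its call without WT replicate 2. KRT7, the type II chain of glandular epithelium, was scarce, with 5, 14 and 18 counts in WT and 17, 10 and 7 in MLST8-KO replicates (adjusted p = 0.728, edgeR). KRT23 had 20, 11 and 11 counts in WT and 12, 11 and 6 in MLST8-KO replicates (log2 fold change -0.65, SE 0.40, adjusted p = 0.230, edgeR).

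Among the hair keratins, which follicles use for the hair shaft and its sheaths, only KRT75 was abundant. KRT75 (chr12:52424070-52434525), a chain of the companion layer between the hair and its outer sheath, was at 323, 254 and 209 TPM in WT and 262, 254 and 253 TPM in MLST8-KO replicates. The MLST8-KO values lay inside the WT range, and the log2 fold change was -0.14 (SE 0.13, adjusted p = 0.422, edgeR). KRT84 (chr12:52377812-52385652), a type II keratin of nail and tongue, had 10, 3 and 4 counts in WT and 49, 57 and 34 counts in MLST8-KO replicates. It had the largest rise of the keratins tested, 2.89 on the log2 scale (SE 0.39, adjusted p = 0.00281, edgeR), at a mean of 2.73 TPM in MLST8-KO cells, and was at 3.54 without WT replicate 1. KRT84 was over the count filter in 0 WT and 3 MLST8-KO libraries, so it was tested only through the group where it was high. KRT34, a type I hair shaft chain, had 13, 15 and 12 counts in WT and 4, 9 and 7 in MLST8-KO replicates. Its groups did not overlap, and its log2 fold change of -1.11 (SE 0.39, adjusted p = 0.0508, edgeR) lay just beyond the threshold. KRT31, another type I hair shaft chain, had 37, 24 and 26 counts in WT and 32, 39 and 43 in MLST8-KO replicates (log2 fold change 0.27, adjusted p = 0.416, edgeR).

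Of the keratins too low to test, 4 reached 10 counts in a sample. KRT74, a sheath keratin, had 7, 4 and 5 counts in WT and 5, 10 and 17 in MLST8-KO replicates. KRT82, of the hair cuticle, had 10, 5 and 2 counts in WT and 1, 6 and 1 in MLST8-KO replicates. KRT3, the corneal type II chain, had 3, 2 and 5 counts in WT and 16, 11 and 5 in MLST8-KO replicates, and KRT79 had 2, 3 and 1 in WT and 4, 11 and 3 in MLST8-KO replicates. At these counts no change was detectable. Where a keratin had 0 counts, counting error alone leaves room for 3, which is 0.209 CPM in the library of lowest depth.

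Since a filament needs 1 chain of each type, the type II to type I ratio of TPM was compared within each library for 6 known pairs, by a two-sided exact permutation test whose smallest possible p is 0.1 with 3 samples against 3. The log2 ratio KRT1/KRT10 was 0.88, -0.60 and -2.38 in WT replicates 1 to 3 and 2.47, 2.66 and 2.72 in MLST8-KO replicates, a difference of 3.32 (p = 0.1, adjusted p = 0.2 over 6 pairs, exact permutation test). The WT samples differed widely among themselves, and all lay below the MLST8-KO samples. Leaving out WT replicate 3 gave a difference of 2.48, and leaving out WT replicate 1 gave 4.11. For KRT5/KRT14 the log2 ratio was 0.45, 0.46 and 0.52 in WT and 0.08, 0.31 and 0.01 in MLST8-KO replicates, a difference of -0.34 (p = 0.1, adjusted p = 0.2, exact permutation test). For KRT6A/KRT16 it was 4.32, 4.73 and 4.83 in WT and 4.02, 4.12 and 4.21 in MLST8-KO replicates, a difference of -0.51 (p = 0.1, adjusted p = 0.2, exact permutation test). In both pairs the type I member had the larger log2 fold change, and the groups did not overlap. The difference was 0.34 for KRT8/KRT18 (p = 0.2, adjusted p = 0.3), -0.85 for KRT7/KRT19 (p = 0.4, adjusted p = 0.48) and -0.25 for KRT4/KRT13 (p = 0.8, adjusted p = 0.8) by the same exact permutation test, with overlapping groups in each. KRT4 had 8 counts or fewer in every sample, and KRT4/KRT13 depended on the scale: on log2(TPM + 1) the difference was -1.91 (p = 0.1, exact permutation test), the smallest p possible.

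**Figure D4:**
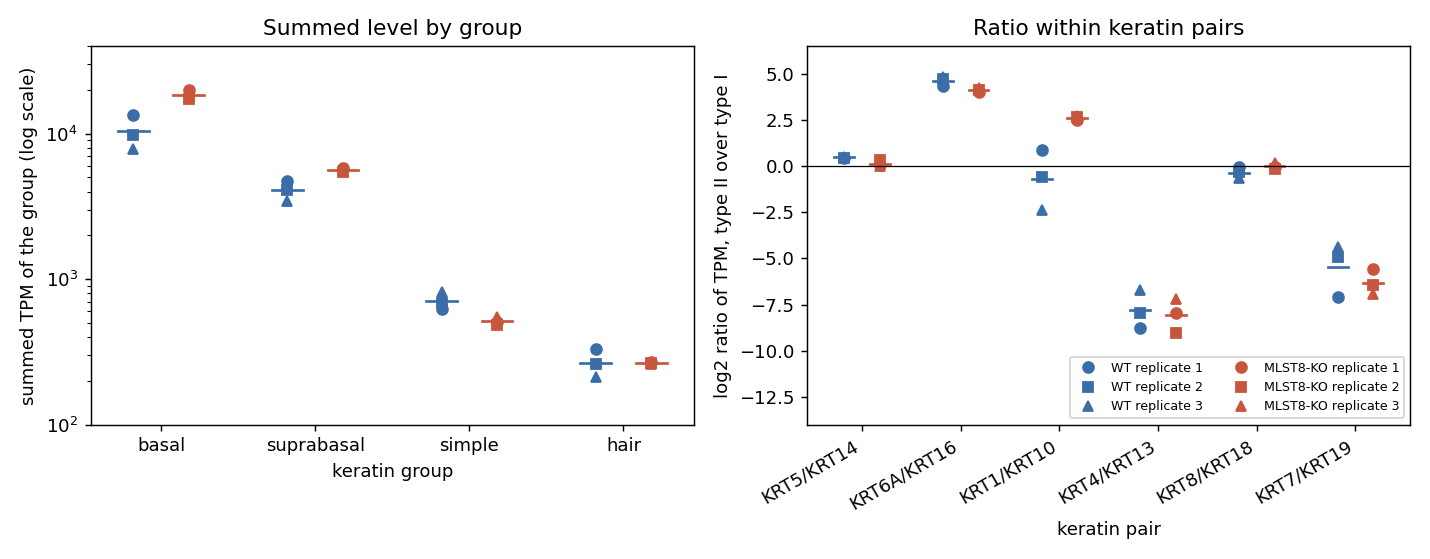
Left, summed TPM of the keratin groups in each library on a log axis; right, log2 ratio of TPM (type II over type I) for 6 keratin pairs in each library, with lines at the group means. KRT1/KRT10 lies between 2.47 and 2.72 in the MLST8-KO libraries and between -2.38 and 0.88 in the WT libraries.

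Along the chromosomes, genes that rose lay next to each other on chromosome 17. In the 124 kb from KRT13 to KRT17 (chr17:41500981-41624842, GRCh38, GENCODE 29) there are 7 protein-coding genes, all keratins of type I, and all 7 were called higher: KRT13, KRT15, KRT19, KRT9, KRT14, KRT16 and KRT17. Their log2 fold changes ran from 0.67 (KRT19) to 1.95 (KRT13). These bounds were set after the values were seen, and 16.3% of all genes tested were higher. KRT9 was over the count filter in 1 WT library only and passed the threshold in a single fit with a library left out, and KRT19 lost its call without WT replicate 2. The hair keratins KRT34 and KRT31 on the KRT36 side of KRT13 were at -1.11 and 0.27. On chromosome 12, the 96.6 kb from KRT75 to KRT5 (chr12:52424070-52520687) hold 5 protein-coding genes, all keratins, with log2 fold changes in chromosome order of -0.14 (KRT75), 0.00 (KRT6B), 2.12 (KRT6C), 0.34 (KRT6A) and 0.52 (KRT5). KRT80 at one end of the type II cluster and KRT8 with KRT18 at the other were the keratins that fell.

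**Figure D5:**
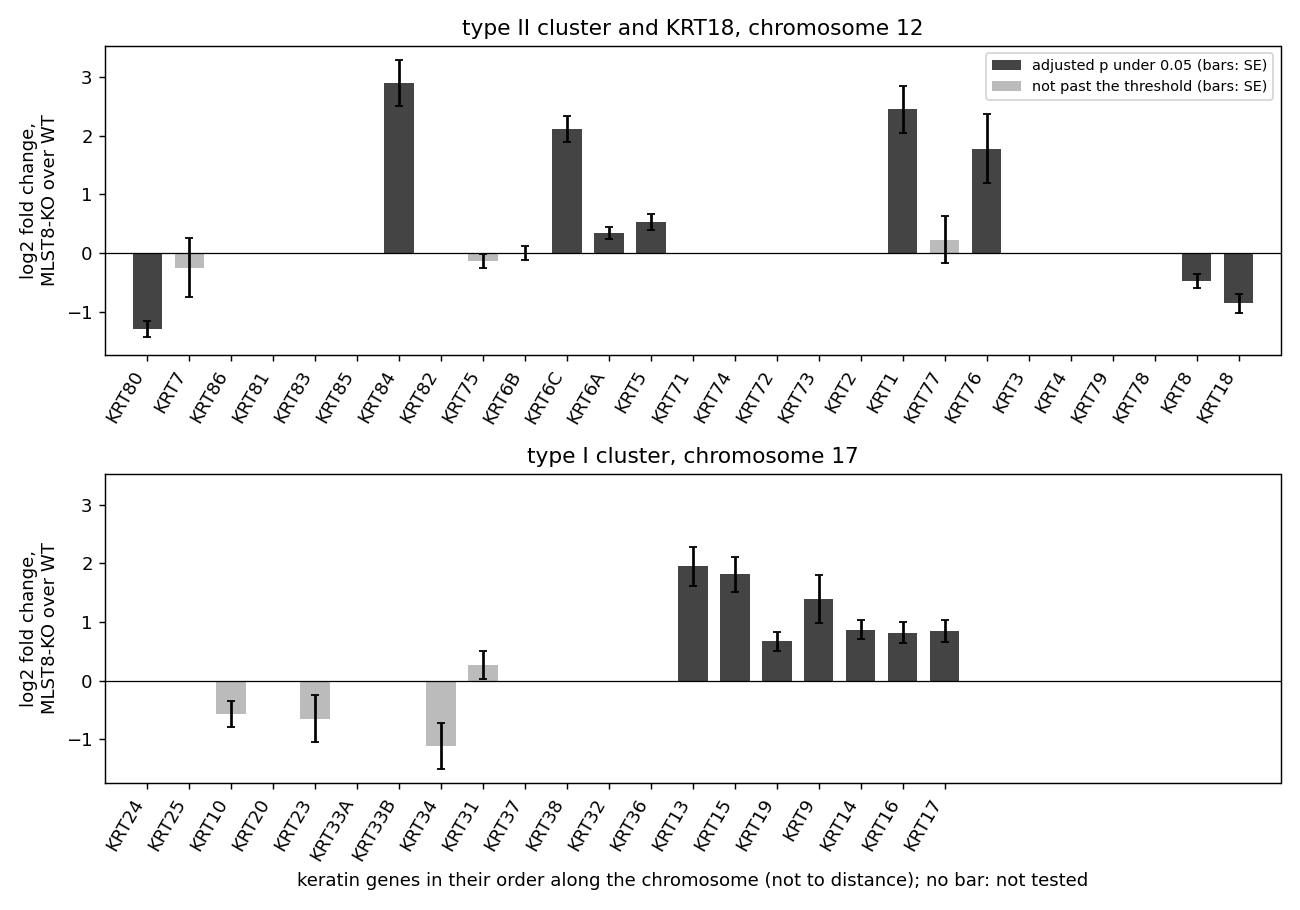
Log2 fold change (bars, with SE) of keratins in their order along chromosomes 12 and 17, not to distance; dark bars have an adjusted p under 0.05 and genes with no bar were not tested. The 7 neighbours from KRT13 to KRT17 are all above 0, and KRT80, KRT8 and KRT18 are below 0 at the ends of the chromosome 12 cluster.

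Some exons of these genes overlap genes on the opposite strand, and the strandedness of the libraries is not given in the sources used here. KRT8 and KRT18 share 525 exonic bases in GENCODE, 7.63% of those of KRT8 and 16.3% of those of KRT18. Annotated antisense genes cover 16.3% of the exonic bases of KRT13, 9.51% of KRT75, 6.89% of KRT7, 6.41% of KRT23, 5.93% of KRT84 and 3.34% of KRT77, and TMEM99 covers 2.61% of those of KRT10. Without strand, reads from these genes and their partners cannot be told apart.

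The keratins that rose also varied among the WT samples in a shared way. WT replicate 1 was the highest WT sample in all 13 of them, and WT replicate 3 was the lowest of all 6 samples in 10 of the 13. The SD divided by the mean TPM was larger in WT than in MLST8-KO samples for 20 of the 24 keratins tested. These counts were not taken over all genes. Over all genes WT replicates 1 and 3 also differed most, with a chi-square per gene of 26.5. The other WT pairs stood at 8.92 and 10.2, and the MLST8-KO pairs at 6.98 to 9.44. A wide gap between WT replicates 1 and 3 was thus not particular to the keratins. Without WT replicate 3, 11 keratins were higher and 3 lower, and without WT replicate 1 13 were higher and 4 lower. Over all genes, 1634 were higher and 1559 lower without WT replicate 3, against 2116 and 2030 with all libraries. Leaving out WT replicate 1 gave 2692 higher and 2651 lower genes.

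The filaments are tied to the cell by desmosomal plaque proteins and plakins. A list of 15 genes held these and PERP, FAM83H, TCHP, FBF1 and AKAP12, which are of neither kind. All 15 were tested, and 6 were higher and 0 lower by edgeR, with a median log2 fold change of 0.30. PERP (0.62, adjusted p = 0.0193, edgeR) and FAM83H (0.58, adjusted p = 0.0036, edgeR) were among the 6. The counts of this and the following lists stand against 16.3% of all genes tested higher and 15.7% lower. DST, a hemidesmosomal linker of keratin to the basement membrane, was at 0.91 (adjusted p = 0.00359, edgeR), and PKP1, a desmosomal plaque protein, was at 0.72 (adjusted p = 0.0101, edgeR). Of 11 other intermediate filament genes tested, 4 were higher and 1 lower, with a median of 0.09. NES (nestin, 1.12) and LMNB1 (lamin B1, 0.90) had the largest rises, and NEFH (the heavy neurofilament chain, -1.24) was the 1 called lower. NEFH had 12, 10 and 11 counts in WT and 6, 6 and 3 in MLST8-KO replicates (adjusted p = 0.0444, edgeR). Its mean was 0.759 CPM in WT and 0.317 CPM in MLST8-KO samples, against a filter level of 0.658 CPM. It was thus tested only through the group where it was high. A list of late squamous differentiation genes held cornified envelope proteins, their crosslinking enzymes, proteases and other genes, DSG1 and LY6D among these others. Of 17 tested, 2 were higher and 2 lower, shares no larger than those of all genes, with a median of 0.12. DSG1 (a desmosomal cadherin of upper layers, 1.57) and LY6D (1.43) rose, and SPRR2D (a cornified envelope precursor, -0.80) and KLK5 (a skin protease, -0.50) fell. The groups overlapped for DSG1, with 63, 24 and 18 counts in WT and 120, 171 and 48 in MLST8-KO replicates. IVL (involucrin) was at 0.21 (adjusted p = 0.340, edgeR). Of 16 transcription factors known in squamous cells, 7 were higher, with a median of 0.25, and SOX2 (1.55) and PRDM1 (1.33) had the largest rises.

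The squamous label was checked with 10 markers, 3 of them keratins (KRT5, KRT6A and KRT14). The keratins held 75.9 to 79.2% of the list's counts, so the other 7 were summed alone, a step added after the data were seen. All 7 were detected in every sample, at 2656 to 4460 CPM in WT and 5199.5 to 5713 CPM in MLST8-KO samples in sum, and 6 were higher and 0 lower by edgeR. Marker lists of other cells were low next to these, though the liver list stood out in MLST8-KO replicate 1. Of 11 liver markers, none at 0 in every sample, the summed level was 0.834 to 7.64 CPM in WT, 291 CPM in MLST8-KO replicate 1 and 5.65 and 3.62 CPM in MLST8-KO replicates 2 and 3. The 3 liver markers tested, AFP, FGA and FGB, were called higher by edgeR, at 4.49 to 4.55 on the log2 scale. Each had 849 to 1083 counts in MLST8-KO replicate 1 and 30 or fewer in any other sample, so these calls rested on 1 library. Without MLST8-KO replicate 1, 9 keratins were higher and 3 lower. KRT5, KRT6A, KRT9 and KRT76 lost their higher call there, KRT8 its lower call, and KRT10 gained a lower call. The log2 fold changes were then 0.48 for KRT5, 0.33 for KRT6A, 1.28 for KRT9, 1.83 for KRT76 and -0.45 for KRT8, close to those with all libraries. Higher calls over all genes went from 2116 to 979 in the same fit. Of 10 fibroblast markers, 5 were under 10 counts throughout and the sums were 32.0 to 34.1 CPM in WT and 34.8 to 39.7 in MLST8-KO samples, with COL1A1 holding most. Of 7 lung adenocarcinoma and alveolar markers, 5 were under 10 counts throughout, and the sum was 2.57 to 4.57 CPM in WT and 9.97 to 11.9 in MLST8-KO samples, with NKX2-1 holding 64.9 to 84.3% of it in WT and 89.6 to 92.7% in MLST8-KO samples (1.81 on the log2 scale, adjusted p = 0.00281, edgeR). Of 6 immune markers, 5 were under 10 counts throughout, and the sums were 53.3 to 75.8 CPM in WT and 42.3 to 57.5 in MLST8-KO samples, mostly CD68 (-0.45). Their part in the keratin values was not tested.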

How the data were processed

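RNA-seq values of 3 WT and 3 MLST8-KO samples were used, grouped by their labels. Libraries were polyA-selected. The authors filtered their reads for quality and adapters, used HISAT (GRCh38.p12) and BowTie2 (genes) for alignment, and deposited TPM, FPKM and estimated counts for each gene. The estimated counts are not normalized, and 12.4% of values were not whole; the TPM and FPKM values of the authors are scaled by gene length and depth. FPKM values were not used here. Another deposited table holds the authors' fold changes, p-values and q-values and was not used.

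Counts were rounded and tested with edgeR 4.0.16 in R 4.3.3 (TMM, filterByExpr by group, glmQLFit, glmQLFTest) with Benjamini-Hochberg adjustment over 12951 genes and a threshold of 0.05; the plan had assumed whole counts. The SE is |log2 fold change| over the root of the F statistic. Fitted fold changes come from counts and levels from TPM. CPM is the count scaled to library size. DESeq2 1.42.0, the study's method, limma 3.58.1 on log2(TPM + 1) and log2(TPM + 0.1), other scalings, other filters, a replicate block and leaving out each library were alternatives. The fit was tested on simulated counts of 12951 genes, 200 of them changed by 1 on the log2 scale. It recovered 90% of these, and 7.69% of its calls fell on unchanged genes, more than the threshold of 0.05 allows for. Pair ratios used scipy 1.17.1. Figures were drawn with matplotlib 3.10.9. Coordinates and coding sequences are from GENCODE 29 and promoter windows from RefSeq. For 25 genes with a date in place of a symbol, the symbol was restored.

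The members, groups and gene lists were chosen with earlier results of these data known. Every keratin tested is named, as are untested keratins with at least 10 counts in a sample. Of other lists, the genes named are up to 2 with the largest rise and 2 with the largest fall past the threshold, and MLST8. IVL, COL1A1 and other genes beyond that rule were named after their values were seen. Some items are not reported here. Samples of a group differed by more than sampling noise (chi-square per gene 6.98 to 26.5), so each counted as 1. The depth of 14381673 to 15744154 counts limits the keratins with few counts.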

Additional observations from a re-analysis of the deposited data

How the results depend on the processing

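The number of keratins called higher was 13 by edgeR, 12 with DESeq2 or with KRT6A, KRT6B and KRT6C summed, 10 with at least 10 counts in every sample, and 8 to 13 when 1 library was left out, lowest without WT replicate 2. The number called lower was 3 or 4 with all libraries kept and 2 to 4 when 1 was left out. Of 206 keratin fold changes recomputed with all libraries kept, 198 stayed on their side of the threshold in the same direction, 4 passed it newly (KRT10 with DESeq2, KRT34 with DESeq2's size factors and both limma fits), 1 lost it (KRT76 with DESeq2) and 3 changed sign. Those were KRT6B, at -0.0015 with DESeq2, -0.00048 with DESeq2's size factors and -0.00057 with no filter. When 1 library was left out, KRT6B ran from -0.13 to 0.087 (below 0 without WT or MLST8-KO replicate 3, the latter at -0.055), KRT7 from -0.67 to 0.16 (above 0 without WT replicate 3), KRT77 from -0.16 to 0.55 (below 0 without WT replicate 3) and KRT75 from -0.26 to 0.031 (above 0 without WT replicate 1). None of these 4 genes passed the threshold in the edgeR fit to all libraries. The difference in KRT4/KRT13 turned to 0.30 without WT replicate 3 and 0.23 without MLST8-KO replicate 2, over a range of -0.72 to 0.30, and was -1.91 on log2(TPM + 1). KRT1/KRT10 ran from 2.48 to 4.11 when 1 library was left out. Over all genes, higher calls were 2116 and ran from 971 to 2692 when 1 library was left out, and lower calls were 2030 and ran from 850 to 2651. limma gave 1134 lower calls on log2(TPM + 1) and 1132 on log2(TPM + 0.1), where the median of all genes stood at 0.09 and 0.10 on the log2 scale, and upper quartile scaling gave 2546 higher and 1559 lower. The cause was not tested. With a replicate block, 13 keratins were higher and 3 lower, and 2261 genes were higher and 2157 lower. Same-numbered samples deviated together only weakly (correlations 0.10, 0.06 and 0.14 for replicates 1 to 3), though each correlated best with its own number, so the numbers were not taken as pairs. Estimated counts cover no error of read assignment among near-identical keratins.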
